A study of Mus musculus with 2 samples.

Results

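Ctsa, Ctsb, Ctsc, Ctsd, Ctsh, Ctsl, Ctss, Ctsz, Lgmn and Lamp1 encode 8 cathepsins, the asparaginyl protease legumain and a protein of the lysosomal membrane. These 10 genes, of 24543 in the tables, were taken by name as a list of cathepsins and lysosomal genes, and all of them had UMIs (unique molecular identifiers, 1 per counted transcript). Their levels were followed across the cells sorted from the caudal part of mouse embryos at E10.0, where blood stem cells begin to form from arterial endothelium. Embryos of 2 genotypes were compared. The cKO was Vec-Cre;Nupr1 fl/fl, in which a Cdh5-driven Cre acts in vascular endothelium and therefore also in the blood cells that descend from it. The controls were littermates, labeled WT in the cell annotation and described in the study as Nupr1 fl/fl or Nupr1 fl/+, all on a C57BL/6 background. Nupr1 encodes a small stress-induced nuclear protein. Cells positive for CD31 and CD44 were tagged by genotype with barcoded hashtags and pooled, and each of the 2 replicates was 1 such pool on 1 lane of a 10x Chromium V3 chip. The number of embryos in each pool was not given.

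The lysosome is the acidic compartment in which cells take apart proteins, lipids and sugars, including material that has been engulfed. Cathepsins are made as inactive precursors, carried there and activated at low pH. Cathepsins B, L and S are cysteine endopeptidases, cathepsins C, H and Z trim peptides from their ends, cathepsin D is an aspartic protease, cathepsin A is a serine carboxypeptidase that also shields β-galactosidase and neuraminidase, and legumain cuts after asparagine and matures other cathepsins. Macrophages are rich in these enzymes, and cathepsin S is best known for its part in antigen processing, while LAMP1 lines the lysosome in nearly every cell.

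No cell annotation other than the hashtag was used here, so cells were grouped by marker genes that are not among the 10. Macrophage-like cells had 2 or more UMIs of Mrc1, a mannose receptor, and microglia-like cells had both P2ry12 and Tmem119. Myeloid-like cells had both Mpo and Fcgr3, and megakaryocyte-like cells had 2 or more UMIs of Gp9, a platelet receptor subunit. Arterial-like cells had 2 or more UMIs of Gja5, a gap junction protein of arterial endothelium. EHT-like cells, named for the endothelial-to-hematopoietic transition, had both Gfi1 and Neurl3, and plexus-like cells had Kitl and Esm1. Of 2139 cells, 1448 fell into 1 group, 442 met several gates and 249 met none. UMIs were summed per group, genotype and replicate, and a sum of 10 or more cells entered the tests. This gave 22 sums of 497134 to 9953791 UMIs, 4 each for macrophage-like, myeloid-like, EHT-like and arterial-like cells, 3 for microglia-like cells, 2 for megakaryocyte-like cells, both of replicate 2, and 1 for plexus-like cells. Levels are given in CPM, the UMIs of a gene divided by all UMIs of the sum and set to the usual CPM scale. Fitted log2 fold changes also use a scaling factor per sum (TMM), so they need not match the ratio of the CPM beside them. UMIs were read at the 3′ end of transcripts, so a level does not grow with the length of the gene.

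The macrophage-like and arterial-like groups carried genes that their gates did not use. Csf1r ran from 218 to 360.1 CPM in macrophage-like sums and from 0 to 2.93 CPM in arterial-like sums, while Cdh5 stood at 976 to 1113 CPM in arterial-like sums and at 2.01 to 5.82 CPM in macrophage-like sums. The macrophage-like cells still had 597 to 949 CPM of Pf4, a platelet gene that is also read in embryonic macrophages, against 18807 to 19617 CPM in megakaryocyte-like cells. The microglia-like and plexus-like groups were less apart from their neighbors. Mrc1 was at 250 to 533 CPM in microglia-like sums, against 399 to 962 CPM in macrophage-like sums. The plexus-like sum held 1094 CPM of Kitl, Esm1, Apln and Plvap together, within the 1053 to 1689 CPM of arterial-like sums. Nupr1, the targeted gene, was at 32.9 and 30.9 CPM in the control EHT-like sums and at 2.20 and 2.63 CPM in the cKO sums of the same cells, a log2 fold change of -3.72 ± 0.52 (SE, adjusted p = 0.00925). In macrophage-like cells it was at 16.1 and 43.2 CPM in control and at 0 and 2.43 CPM in cKO. Whether the counted 3′ end lies within the deleted part was not given. Replicate 1 had 678 cells, at a median of 38416.5 UMIs in control and 45609.5 in cKO, and replicate 2 had 1461 cells, at 58048 and 62116 UMIs, and no barcode was shared.

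The 10 genes together took up the largest part of the transcriptome in the phagocytes. They held 0.6251% ± 0.119 of all UMIs (SD, n = 4) in macrophage-like sums and 0.709% ± 0.216 (n = 3) in microglia-like sums. Arterial-like cells followed with 0.225% ± 0.0577 (n = 4), ahead of myeloid-like cells with 0.158% ± 0.0531 (n = 4) and EHT-like cells with 0.103% ± 0.0343 (n = 4). The megakaryocyte-like sums stood at 0.0771% ± 0.0013 (n = 2), and the single plexus-like sum at 0.0875%. Macrophage-like and microglia-like totals overlapped, and both lay above every other group, whereas the myeloid-like and arterial-like totals overlapped. The make-up of the total also differed. Ctsb supplied 29.2% of it in macrophage-like cells, while Ctsh supplied 31.0% and Ctsl 29.8% in arterial-like cells, and Lamp1 and Ctsz supplied 33.8% and 30.7% in megakaryocyte-like cells.

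**Figure D1:**
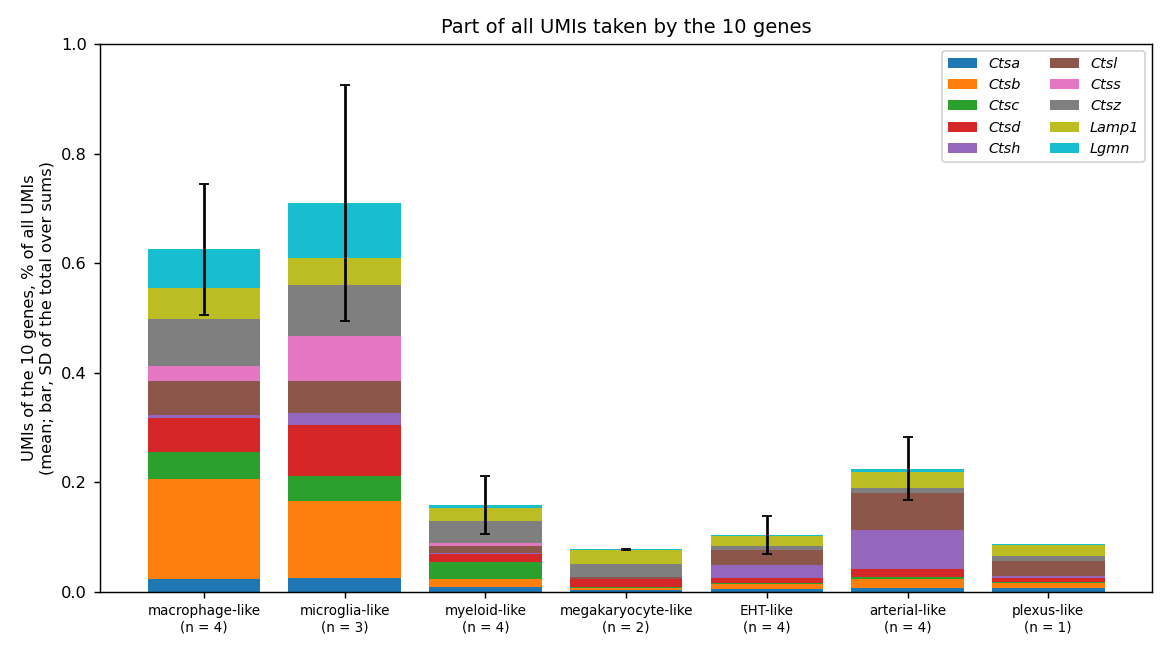
Percent of all UMIs held by each of the 10 genes (stacked colors, mean over the sums of a group) in 7 groups of cells, with n the number of sums. Error bars are the SD of the total, and the macrophage-like and microglia-like totals of 0.6251% and 0.709% stand above the 0.225% of arterial-like cells.

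The first comparison asked how macrophage-like cells differ from arterial endothelium in these genes. In all, 8 members were higher in macrophage-like cells, 1 was lower and 1 did not pass the test, where 28% of the 11907 tested genes were higher and 27.9% were lower. The median log2 fold change was 2.85 over the 10 genes and 0.043 over all genes tested, the latter moving to -0.11 with RLE scaling. The groups differ in most of their transcriptome, so 8 of 10 is to be read against that share. p-values throughout measure the spread between sums that come from only 2 pools.

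Among the endopeptidases, Ctsb was at 1716 and 2078 CPM in the control macrophage-like sums of replicates 1 and 2 and at 1425 and 2066 CPM in the cKO sums. The arterial-like sums held 158 and 171 CPM in control and 117 and 226 CPM in cKO. The 2 groups lay far apart, with a log2 fold change of 3.74 ± 0.36 (SE) and an adjusted p of 3.68e-07. Ctss, the cathepsin of antigen processing, showed the widest gap. Its macrophage-like sums were at 201 and 370.4 CPM in control and 161 and 333 CPM in cKO, whereas both arterial-like sums of replicate 1 had 0 UMIs, which allows up to 1.11 CPM in control and 1.63 CPM in cKO. The arterial-like sums of replicate 2 were at 2.09 and 1.93 CPM, and all 4 together held 10 UMIs of Ctss. The fitted log2 fold change of 8.28 ± 0.90 (adjusted p = 7.58e-06) rests on those few UMIs and on the prior count of the fit.

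Ctsl did not follow Ctsb and Ctss. It was at 396 and 775 CPM in control and 589 and 719.7 CPM in cKO macrophage-like sums, and at 523 and 836 CPM in control and 463 and 877 CPM in cKO arterial-like sums. The sums of the 2 groups were interleaved, and the log2 fold change was 0.20 ± 0.42 (adjusted p = 0.722). By CPM, which lack the scaling of the fit, Ctsl was lower in macrophage-like cells in 3 of 4 pairs of the same pool and genotype. The sign of its fold turned under several other settings, listed at the end.

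The exopeptidases moved in both directions. Ctsc encodes the dipeptidyl peptidase that activates granule serine proteases. It was at 453 and 561 CPM in control and 468 and 523 CPM in cKO macrophage-like sums, against 12.5 to 32.4 CPM in arterial-like sums. The log2 fold change was 4.61 ± 0.43 (adjusted p = 3.68e-07). Ctsz, a carboxypeptidase, was at 710.1 to 960.4 CPM against 74.9 to 129 CPM (3.38 ± 0.33, adjusted p = 2.60e-07). Both genes were higher in every macrophage-like sum than in any arterial-like sum. Ctsh, an aminopeptidase, ran the other way. Its arterial-like sums were at 599 and 892 CPM in control and 458 and 854 CPM in cKO, and its macrophage-like sums at 14.1 and 90.01 CPM in control and 25.4 and 79.4 CPM in cKO. Every arterial-like sum was above every macrophage-like sum, and Ctsh was lower in macrophage-like cells by a log2 fold change of -3.25 ± 0.71 (adjusted p = 0.00214).

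Lgmn, which matures other cathepsins, was at 712 and 866 CPM in control and 437 and 819 CPM in cKO macrophage-like sums, and at 30.4 to 77.3 CPM in arterial-like sums (log2 fold change 3.94 ± 0.73, adjusted p = 0.000674). Ctsd, the aspartic protease, was at 472 to 765 CPM against 113 to 186 CPM (2.33 ± 0.31, adjusted p = 8.72e-06). Ctsa, the serine carboxypeptidase, was at 169.9 to 288 CPM against 59.0 to 85.7 CPM (1.99 ± 0.29, adjusted p = 1.97e-05). Lamp1, the membrane protein, had the smallest called difference, with 461 to 653 CPM against 245 to 323 CPM (1.29 ± 0.23, adjusted p = 0.000161). The sums of the 2 groups did not overlap for any of these genes. How many of all genes had sums that did not overlap was not counted, in this or the later comparisons of groups. Of the 11907 genes tested here, 6664 were called. The calls on the 9 members that passed remained when any genotype of either replicate was left out.

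**Figure D2:**
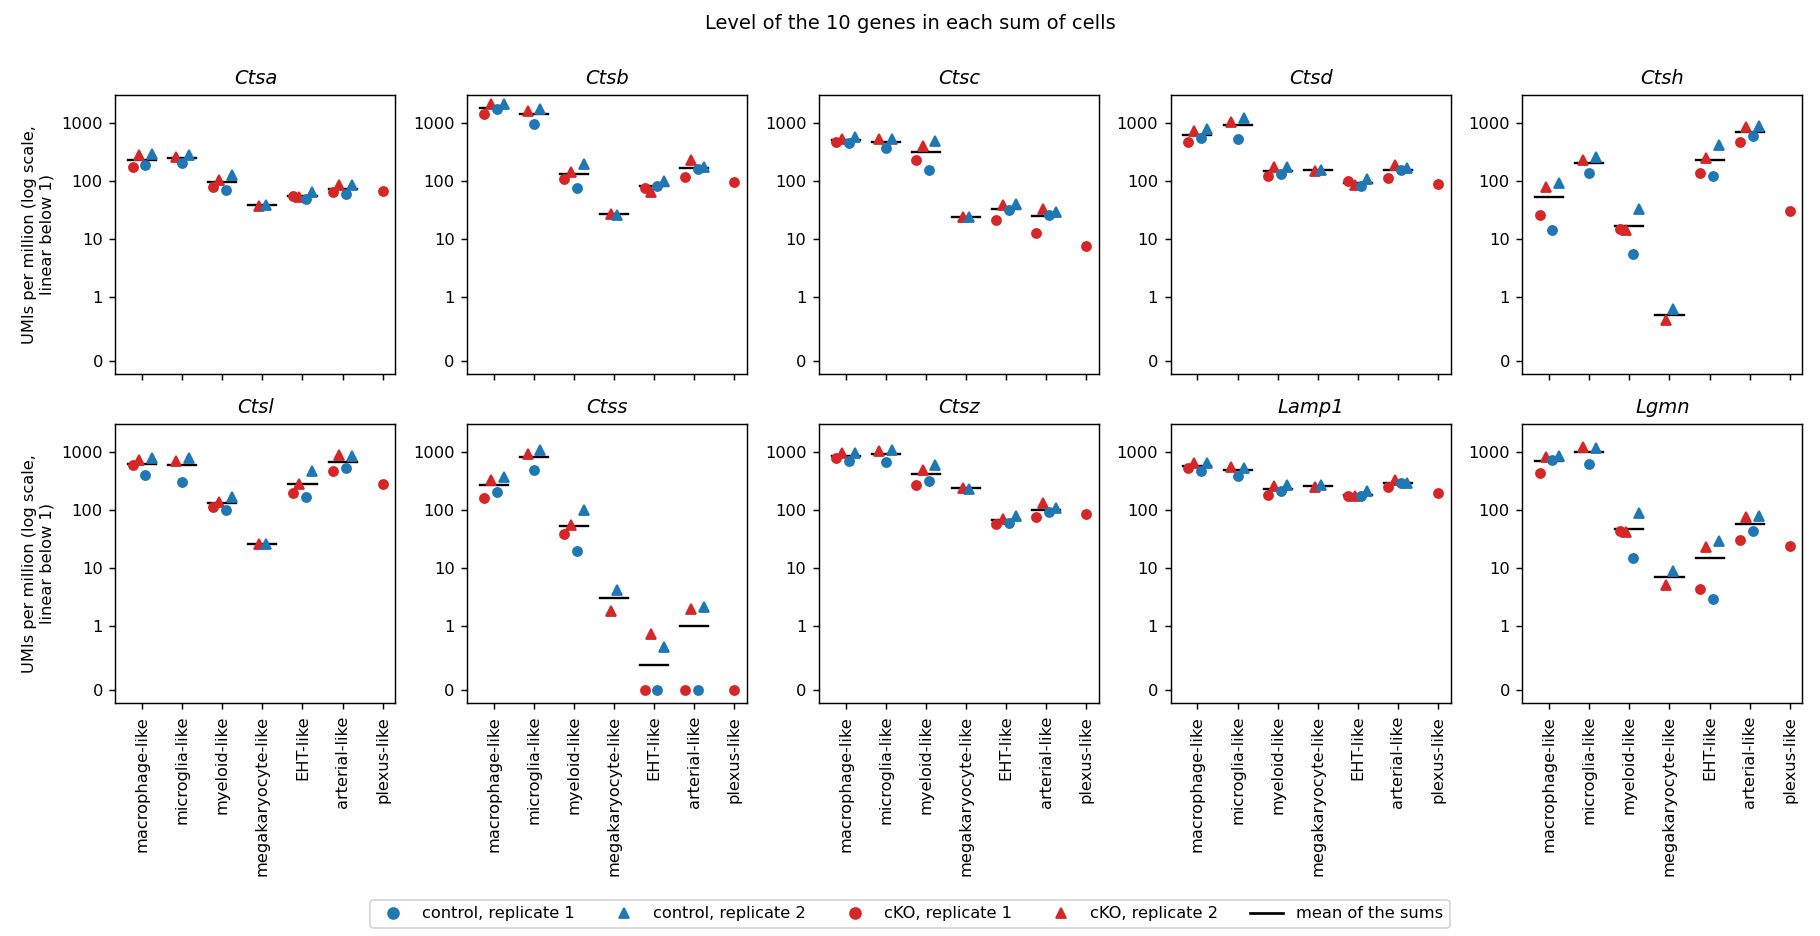
Level of each of the 10 genes, in CPM on a log scale that is linear below 1, in every sum of 10 or more cells, by group of cells. Color gives the genotype, shape the replicate and the black line the mean, and the means of Ctsh (701 CPM) and Ctsl (675 CPM) were highest in arterial-like cells, with 52.2 and 620 CPM in macrophage-like cells, while Ctss was at 1.00 CPM in arterial-like cells.

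Droplets can take up RNA released by other cells, and the level that such RNA reaches was read from 6 transcripts of macrophages (C1qa, C1qb, C1qc, Fcrls, Ms4a7 and Trem2). In arterial-like cells they reached a median of 0.140% of their macrophage-like level in replicate 1 and 0.381% in replicate 2. Ctss, at 0% and 0.571%, lay within the range of these transcripts. The other members lay above it, from 4.41% for Ctsc in replicate 1 upward, with Ctsb at 9.47% and 9.64% and Lamp1 at 54.1% and 47.7%. A Ctss UMI was found in 2.59% of 386 arterial-like cells (exact binomial 95% interval 1.25 to 4.71, counting error only) at a median of 23325.5 UMIs per cell, and in 98.6% of 359 macrophage-like cells at a median of 56259 UMIs. Ctsh was found in 93.5% of arterial-like cells (90.6 to 95.8) and still in 86.0% of them after each cell was thinned to 6000 UMIs, which left out 15 cells. In megakaryocyte-like cells, whose median was 81915 UMIs, it was found in 6.33% of 221 cells (3.51 to 10.4), and in 1.36% after thinning.

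**Figure D3:**
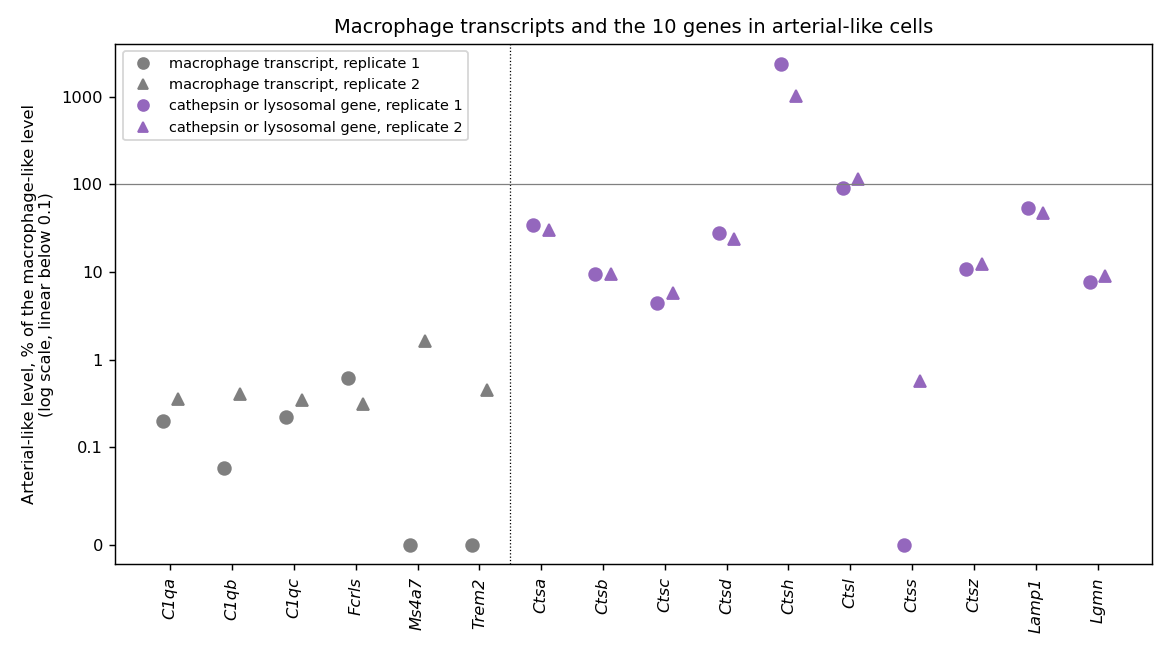
Level in arterial-like cells as a percent of the level in macrophage-like cells of the same replicate, on a log scale that is linear below 0.1, for 6 macrophage transcripts (grey) and the 10 genes (purple). Ctss, at 0% and 0.571%, lies among the macrophage transcripts, Ctsl lies at 91.4% and 115% and Ctsh at 2377% and 1032%.

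The other genes of the lysosome were read from a list of 83, of which 77 were tested. In macrophage-like against arterial-like cells, 47 were higher, 6 were lower and 24 were not called, with a median log2 fold change of 1.01, where 28% of all genes tested were higher and 27.9% were lower. Subunits of the proton pump, which acidifies the lysosome, were higher in 13 of 14 tested genes, and hydrolases and their activators in 20 of 34, with 1 lower. The 4 tested transcription factors of the MiT family, which drive lysosomal genes, were all higher. Cd68 (7.54 ± 0.57, adjusted p = 3.87e-08), Slc11a1 (7.39 ± 0.61, adjusted p = 3.47e-08) and Tfec (7.13 ± 0.56, adjusted p = 1.62e-08) had the highest log2 fold changes. Ctsw, a cathepsin known from cytotoxic lymphocytes, had the lowest (-7.25 ± 0.90), with 27.4 CPM in arterial-like and 0.650 CPM in macrophage-like cells, followed by Igf2r, a receptor that carries enzymes to the lysosome (-5.44 ± 0.32), and Laptm4b (-3.16 ± 0.34). The folds of Tfec and Ctsw stand against only 3 arterial-like and 2 macrophage-like UMIs.

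Promoter sequences of these genes were searched for the E-box CACGTG, the core that MiT factors bind, and for GAGGAAGT, a site of the PU.1 type used in macrophage genes. RefSeq windows on GRCm38.p6, from 250 bases before a transcript start to 50 after it, matched 8 of the 10 genes with 10 windows, since Ctsa and Lgmn had more than 1 start. Ctsb (chr14:63122462-63145923, + strand) and Ctsh (chr9:90054152-90076089, + strand) were not searched. The E-box was in 7.15% of 32851 such windows, with each strand read the same because the motif is its own reverse complement, and in 5 of the 10 windows of these genes (Ctsa, Ctsd, Ctsl, Lamp1 and Lgmn). The end of 9 of the 10 windows was found in GENCODE transcripts of the gene. The exception was the Lgmn window with the E-box, and the other Lgmn window had none. Of the Ctsa windows, the one with the E-boxes had its last bases at least 303 bases into a transcript, and the other had no E-box. A window end found within a transcript does not show that a transcript starts there. The longer TCACGTG, which contains it, was in 3.77% of all windows on either strand and in windows of Ctsa, Ctsd, Lamp1 and Lgmn. GAGGAAGT was in 3.20% of all windows on either strand and in those of Ctsc and Ctss. The windows of Lamp1, with 4 E-boxes, and Ctsd, with 2 like Ctsa, are shown because both genes were counted in every group, and those of Ctss and Ctsc because they hold the PU.1 motif and were the members most raised in macrophage-like over arterial-like cells. Capitals mark the motif, the E-box in Lamp1 and Ctsd and GAGGAAGT, as its reverse complement, in Ctss and Ctsc. Lamp1 is on chr8:13158911-13159210 (+), Ctsd on chr7:142387778-142388077 (-), Ctss on chr3:95526536-95526835 (+) and Ctsc on chr7:88277835-88278134 (+).
Lamp1: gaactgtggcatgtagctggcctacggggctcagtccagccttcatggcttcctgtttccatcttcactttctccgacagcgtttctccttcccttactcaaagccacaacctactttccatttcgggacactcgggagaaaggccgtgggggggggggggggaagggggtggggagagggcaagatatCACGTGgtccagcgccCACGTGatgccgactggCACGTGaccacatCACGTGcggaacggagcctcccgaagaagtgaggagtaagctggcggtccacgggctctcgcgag
Ctsd: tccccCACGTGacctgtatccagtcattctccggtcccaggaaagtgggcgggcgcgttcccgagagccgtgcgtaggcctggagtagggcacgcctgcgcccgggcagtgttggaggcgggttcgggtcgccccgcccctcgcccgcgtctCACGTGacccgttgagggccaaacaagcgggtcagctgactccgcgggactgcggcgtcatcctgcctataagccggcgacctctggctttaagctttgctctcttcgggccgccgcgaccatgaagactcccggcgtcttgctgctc
Ctss: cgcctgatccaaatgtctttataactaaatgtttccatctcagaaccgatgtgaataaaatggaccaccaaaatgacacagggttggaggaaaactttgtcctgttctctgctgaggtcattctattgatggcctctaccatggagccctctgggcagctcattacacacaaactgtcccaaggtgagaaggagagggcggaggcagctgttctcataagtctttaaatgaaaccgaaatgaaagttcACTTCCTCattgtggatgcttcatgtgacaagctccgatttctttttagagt
Ctsc: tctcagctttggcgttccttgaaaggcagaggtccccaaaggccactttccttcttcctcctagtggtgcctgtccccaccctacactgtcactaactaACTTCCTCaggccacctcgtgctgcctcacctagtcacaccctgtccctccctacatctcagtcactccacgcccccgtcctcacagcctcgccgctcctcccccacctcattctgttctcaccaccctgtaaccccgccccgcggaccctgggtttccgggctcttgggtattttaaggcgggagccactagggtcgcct
In Lamp1 the 4 E-boxes began 61, 45, 28 and 15 bases before the start, and in Ctsd the pair began 245 and 98 bases before it. The PU.1 motif began 2 bases before the start of Ctss and 151 bases before that of Ctsc. A match is a description of these letters and not of a bound site.

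Microglia-like cells were compared with macrophage-like cells to ask whether 2 marker-defined groups of phagocytes differ in these genes. The groups were not fully apart, since 54 of the 127 microglia-like cells fell into clusters named macrophage-like when cells were clustered on their whole expression, and 64 into the microglia-like cluster. No member passed the test (edgeR), where 1.18% of 11907 genes did and 8.4% had an unadjusted p under 0.05. Ctss and Ctsh had the highest values. Ctss was at 483 and 1069.8 CPM in the control microglia-like sums and at 909.9 CPM in the cKO sum of replicate 2, above each macrophage-like sum, with a log2 fold change of 1.66 ± 0.60 (adjusted p = 0.409, unadjusted p = 0.0180). Ctsh was at 135 and 254 CPM in control and 224 CPM in cKO, also above each macrophage-like sum (1.86 ± 0.73, adjusted p = 0.486, unadjusted p = 0.0265). Both were higher in microglia-like than in macrophage-like cells of the same pool and genotype in 3 of 3 pairs, while Ctsb, Ctsl and Lamp1 were lower in 3 of 3. How many of all genes kept 1 direction in these pairs was not counted. With the replicate as a block, which takes out the difference between pools, Ctss (1.38 ± 0.24, adjusted p = 0.00804) and Ctsh (1.68 ± 0.37, adjusted p = 0.0437) passed the test. The block raised the genes called from 141 to 466, or 3.91%. For the other 8 members the log2 fold changes ran from -0.30 for Ctsb to 0.64 for Ctsd, and none was called with or without the block. With clusters in place of the gates, Ctsd (1.50 ± 0.24, adjusted p = 0.00209), Ctsh (2.55 ± 0.49, adjusted p = 0.0125) and Ctss (2.43 ± 0.40, adjusted p = 0.00356) passed, where 469 of 12787 genes did.

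Myeloid-like cells, with Mpo and Fcgr3, held less of most members than macrophage-like cells. Of the 10, 8 members were lower and none higher, where 10.3% of 11907 genes were lower, and the median over the 10 genes was -1.96. Lgmn was at 14.8 and 89.9 CPM in control and 42.8 and 41.4 CPM in cKO myeloid-like sums, a log2 fold change of -3.92 ± 0.72 against macrophage-like cells (adjusted p = 0.00266). Ctsb was at 73.8 and 196 CPM in control and 108 and 139.5 CPM in cKO (-3.83 ± 0.37, adjusted p = 2.56e-06). Both genes lay in every myeloid-like sum under the lowest macrophage-like sum. The 6 macrophage transcripts reached a median of 5.66% of their macrophage-like level in myeloid-like cells of replicate 1 (3.22% to 13.4%) and 5.08% in replicate 2 (2.52% to 17.5%), and Lgmn at 5.09% and 7.998% and Ctsb at 5.83% and 8.19% lay within those ranges. The levels of Lgmn and Ctsb in this gate are therefore not shown to be above that of macrophage RNA. The other 8 members lay above the ranges, from 15.6% for Ctss in replicate 1 upward. By cluster, 66 of the 199 cells were myeloid-like, 36 EHT-like, 21 macrophage-like, 4 microglia-like and 72 unnamed. With clusters, made without the 10 genes, in place of the gates, Lgmn was at -6.79 ± 0.66, Ctss at -6.03 ± 0.59 and Ctsh at -3.90 ± 0.66. Ctss, Ctsl and Ctsd were lower by log2 fold changes of -2.37 ± 0.58, -2.30 ± 0.45 and -2.12 ± 0.31 (adjusted p = 0.0138, 0.00231 and 0.000115). Lamp1, Ctsa and Ctsz were lower by -1.35 ± 0.23, -1.34 ± 0.28 and -1.08 ± 0.30 (adjusted p = 0.000462, 0.00265 and 0.0186).

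Ctsc stood closest to the macrophage level. Its myeloid-like sums were at 155 and 476 CPM in control and 227 and 393 CPM in cKO, and they overlapped the macrophage-like sums, with a log2 fold change of -0.70 ± 0.37 (adjusted p = 0.223). Ctsh was at 5.41 to 32.8 CPM (-1.81 ± 0.72, adjusted p = 0.110). With the replicate as a block both were also lower, Ctsc by -0.78 ± 0.20 (adjusted p = 0.00883) and Ctsh by -1.85 ± 0.40 (adjusted p = 0.00690), where the block called 17.5% of genes lower, and the genes called in either direction rose from 2245 to 3932. Without the cKO of replicate 1, Ctsz and Ctss were no longer called (adjusted p = 0.0786 and 0.100), and without the cKO of replicate 2, Ctsl, Ctss and Lgmn were not (adjusted p = 0.0550, 0.159 and 0.0693). Of the 77 other lysosomal genes tested, 36 were lower and 5 were higher, where 10.3% of all genes were lower and 1014 of 11907 higher. Grn (-3.17 ± 0.33), Slc11a1 (-2.91 ± 0.39) and Cd68 (-2.81 ± 0.40) had the lowest values. Among those that were higher were Ctsg, the granule protease cathepsin G that Ctsc activates (12.2 CPM against 0.0265 CPM, or 255 UMIs against 1), and the cathepsin inhibitors Cst7 (5.75 ± 0.59, adjusted p = 1.61e-05) and Stfa3 (4.94 ± 1.29, adjusted p = 0.0267).

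Megakaryocyte-like cells had the lowest levels of most of the proteases. All 10 members were lower than in macrophage-like cells, where 17% of 11907 genes were lower, and the median over the 10 genes was -4.48. The group had only 2 sums, control and cKO of replicate 2. Lgmn was at 8.74 and 4.99 CPM (log2 fold change -6.70 ± 1.14, adjusted p = 0.000717), Ctss at 4.22 and 1.79 CPM (-6.58 ± 1.00, adjusted p = 0.000252) and Ctsb at 25.8 and 26.9 CPM (-6.07 ± 0.56, adjusted p = 4.60e-07). Ctsh was at 0.804 and 0.640 CPM, or 13 UMIs in all (-6.27 ± 1.27, adjusted p = 0.00240). Ctsl and Ctsc were lower by -4.58 ± 0.67 and -4.37 ± 0.57 (adjusted p = 0.000106 and 2.24e-05). The gap was smallest for Lamp1, which was at 269 and 252 CPM (-1.10 ± 0.29, adjusted p = 0.00754), Ctsz at 231 and 242 CPM (-1.82 ± 0.40, adjusted p = 0.00193), Ctsd at 153 and 148 CPM (-2.02 ± 0.40, adjusted p = 0.000770) and Ctsa at 38.2 and 37.0 CPM (-2.61 ± 0.39, adjusted p = 4.57e-05). Lamp1, Ctsz and Ctsd thus were at 148 CPM or more in cells in which Ctss, Ctsh and Lgmn were all but absent. The calls on Lamp1 and Ctsh were lost without the cKO of replicate 2 (adjusted p = 0.106 and 0.0725). Erythroid transcripts summed to 889.5 to 2689.5 CPM in these sums and to at most 56.4 CPM in the other groups, and their part in the result was not tested.

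Of the 77 other lysosomal genes tested in megakaryocyte-like against macrophage-like cells, 48 were lower and 3 were higher, where 17% of all genes were lower and 1888 of 11907 higher. Hydrolases and activators were lower in 28 of 34. Cd68 (-6.69 ± 0.68), Slc11a1 (-6.11 ± 0.64) and the sulfatase Arsb (-5.91 ± 0.59) had the lowest values. Those that were higher included Cst7 (5.75 ± 0.62, adjusted p = 8.20e-06) and the sphingomyelinase gene Smpd1 (1.79 ± 0.27, adjusted p = 4.51e-05).

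**Figure D4:**
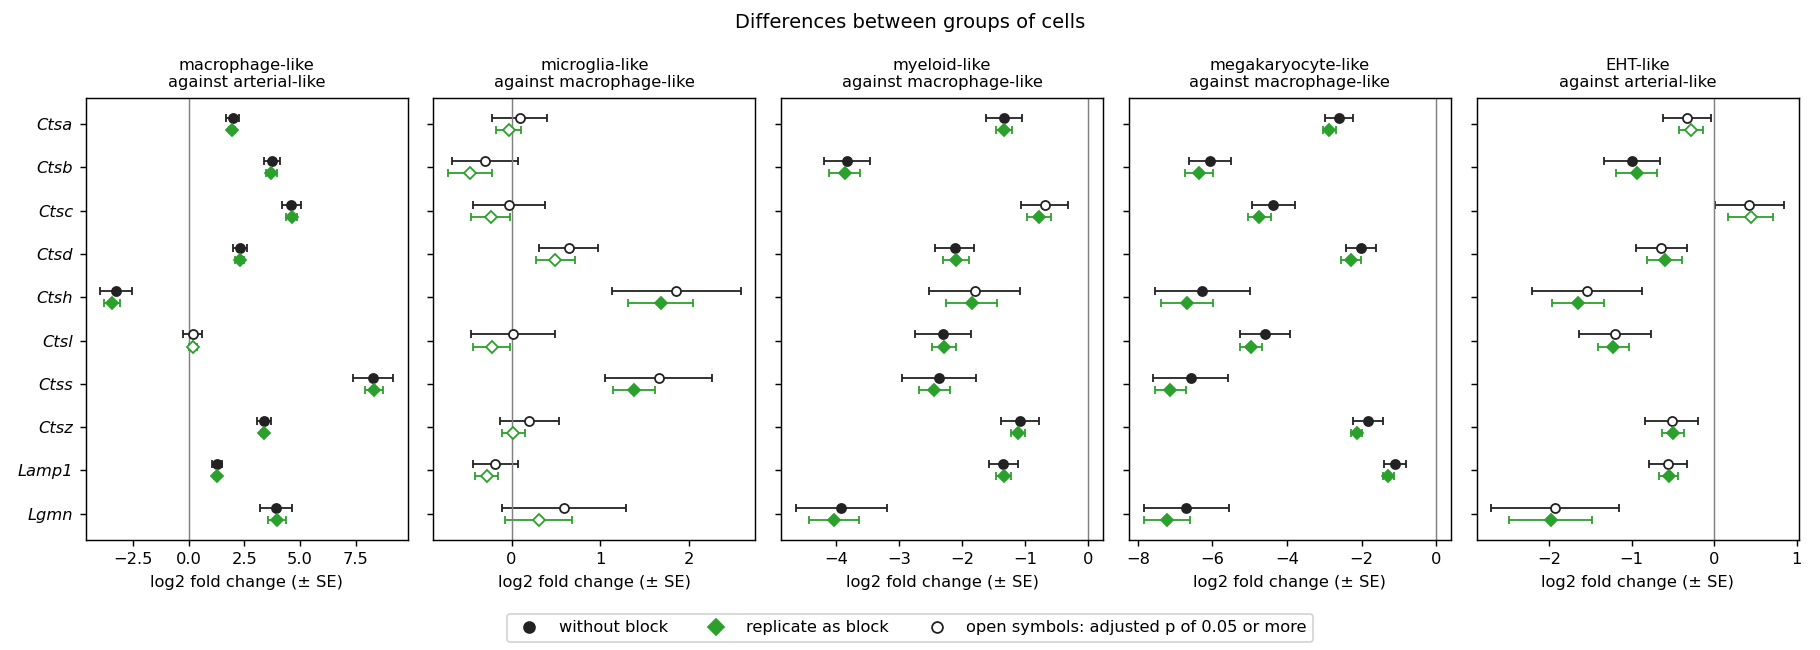
Log2 fold change with its SE for each of the 10 genes in 5 comparisons of groups of cells, without (black circles) and with (green diamonds) the replicate as a block; filled symbols had an adjusted p under 0.05. Ctss is left out of the last panel, where both groups had almost no UMIs, and 7 members in that panel passed the test with the block and 1 without it.

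EHT-like cells were compared with arterial-like cells to follow these genes at the step from endothelium to blood. Ctsb was the one member called, and it was lower in EHT-like cells, where 12.5% of 11907 genes were lower. It was at 79.6 and 100.1 CPM in control and 75.2 and 63.1 CPM in cKO EHT-like sums, under each arterial-like sum (log2 fold change -0.996 ± 0.341, adjusted p = 0.0437). With the replicate as a block, 7 members were lower and none was higher, where 18.4% of genes were lower, and the genes called in either direction rose from 2960 to 4587. With this block Ctsb was at -0.94 ± 0.25 (adjusted p = 0.0130), Ctsl at -1.22 ± 0.19 (adjusted p = 0.000249), Ctsh at -1.64 ± 0.31 (adjusted p = 0.00300) and Lgmn at -1.98 ± 0.50 (adjusted p = 0.0135). Lamp1 was at -0.55 ± 0.12 (adjusted p = 0.000635), Ctsz at -0.49 ± 0.13 (adjusted p = 0.00455) and Ctsd at -0.60 ± 0.22 (adjusted p = 0.0475).

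The pools differed in the level of several of these genes. Ctsh was at 119 CPM in control and 134 CPM in cKO EHT-like cells of replicate 1 and at 418 and 245 CPM in those of replicate 2, while the arterial-like sums stood at 599 and 458 CPM in replicate 1 and 892 and 854 CPM in replicate 2. Within each pool and genotype it was lower in EHT-like cells, by 1.09 to 2.32 on the scale of log2(CPM + 1). Ctsl was at 169 and 193 CPM in replicate 1 and 469 and 280.4 CPM in replicate 2 of the EHT-like cells, and was lower in 4 of 4 pairs. Without the block its log2 fold change was -1.20 ± 0.43 (adjusted p = 0.0583) and that of Ctsh was -1.54 ± 0.66 (adjusted p = 0.119). Lgmn was at 2.92 and 4.40 CPM in replicate 1 and 28.9 and 22.8 CPM in replicate 2, each under the arterial-like sum of the same pool and genotype (-1.92 ± 0.77, adjusted p = 0.0955).

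Lamp1 was at 172 to 211 CPM in EHT-like sums (-0.56 ± 0.23, adjusted p = 0.0910), Ctsd at 82.5 to 107 CPM (-0.64 ± 0.31, adjusted p = 0.146), Ctsz at 56.8 to 78.6 CPM (-0.52 ± 0.32, adjusted p = 0.262) and Ctsa at 48.9 to 63.1 CPM (-0.33 ± 0.30, adjusted p = 0.465). All 4 were lower in EHT-like than in arterial-like cells in 4 of 4 pairs of the same pool and genotype. Of the members, Ctsc alone was higher in 4 of 4 pairs, at 21.1 to 39.0 CPM (0.43 ± 0.42, adjusted p = 0.512). With the block it was at 0.44 ± 0.27 (adjusted p = 0.236). How many of all genes were lower or higher in 4 of 4 pairs was not counted, here or for Ctsh, Ctsl and Lgmn above. Ctss had 2 UMIs in the EHT-like sums, and no fold is given. The direction of these values depends on the scaling for the transcriptome as a whole. With RLE scaling the median of all genes moved from 0.018 to -0.089, and the split of called genes from 1477 higher and 1483 lower to 1159 higher and 1815 lower; 3 members were then lower (Ctsb, Ctsl and Lamp1). The call on Ctsb was lost without the control of replicate 1 (adjusted p = 0.0662), the cKO of replicate 1 (adjusted p = 0.0602) or the cKO of replicate 2 (adjusted p = 0.241). Arterial marker genes summed to 456 to 1204 CPM in EHT-like sums and 2914 to 3631 CPM in arterial-like sums, and the part of remaining arterial transcripts in these values was not tested.

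Per cell, Ctsh, Ctsl and Ctsb were also compared at 1 depth. After thinning to 6000 UMIs, Ctsh was found in 86.0% of 371 arterial-like and 44.4% of 124 EHT-like cells, with means of 4.38 and 1.49 UMIs per cell over all cells. Ctsl was found in 91.6% and 63.7%, with means of 4.05 and 1.73 UMIs. Ctsb was found in 57.4% and 39.5%. Unthinned, at medians of 23325.5 and 45533 UMIs, the shares were 93.5% and 71.8% for Ctsh, 96.6% and 99.2% for Ctsl and 89.4% and 93.5% for Ctsb. Of the 77 other lysosomal genes tested, 10 were lower and 6 were higher in EHT-like cells, with a median of -0.24. Over all genes tested 12.5% were lower and 1477 of 11907 were higher, so these counts lay near or under the background. The lowest were Smpd1 (-1.33 ± 0.27, adjusted p = 0.00203), the cholesterol transporter Npc1 (-1.31 ± 0.30, adjusted p = 0.00426) and Tmem192 (-1.22 ± 0.36, adjusted p = 0.0191). The highest were Tfec (3.37 ± 0.84, adjusted p = 0.00734), Dnase2a (2.26 ± 0.64, adjusted p = 0.0152) and Gm2a (1.77 ± 0.54, adjusted p = 0.0230). These 3 folds rest on few UMIs, 20, 20 and 47 in EHT-like against 3, 7 and 26 in arterial-like sums.

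The plexus-like cells, which by the gates have Kitl and Esm1 and fewer than 2 UMIs of Gja5, gave only the cKO sum of replicate 1, with 16 cells. No member was called against arterial-like cells (edgeR), where 2.36% of 11907 genes were called and 13% had an unadjusted p under 0.05, and the lone sum is assumed to vary like the other groups. Ctsh differed most, at 29.9 CPM against 458 CPM in the arterial-like sum of the same pool and genotype (log2 fold change -4.41 ± 1.51, adjusted p = 0.203). Its adjusted p was 0.0248 with the replicate as a block (-3.69 ± 0.76, where 2.73% of genes were lower), and 0.0414 and 0.0373 without the control of replicate 1 or 2. These values borrow their spread from other groups, and with a lone sum the variation among plexus-like sums was not measured. With overlapping gates resolved, 75 cells that also met the arterial-like gate joined the group, which then had sums of both genotypes in both replicates. No member was called there, where 606 of 11966 genes were. The median log2 fold change of the members was -0.22 in that setting and -0.97 with the lone sum. In the lone sum, Ctsl was at 284 CPM against 463 CPM in the same pool and genotype, Lamp1 at 197 against 245 CPM, and Ctss at 0 UMIs, which allows up to 3.20 CPM. None of the 77 other lysosomal genes tested was called, and 9 had an unadjusted p under 0.05.

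The comparison of cKO with control asked whether loss of Nupr1 changed these genes in any group. It could be tested in macrophage-like, myeloid-like, EHT-like and arterial-like cells, with 2 sums of each genotype. No member was called by edgeR in any of them, and none had an unadjusted p under 0.05. The genes called were 0 of 10006, 0 of 9686, 1 of 8671 and 0 of 9977, or 0%, 0%, 0.0115% and 0%, and those with an unadjusted p under 0.05 were 39, 53, 130 and 133, or 0.39%, 0.547%, 1.5% and 1.33%. These last shares lay under the rate that the threshold itself allows, so the test was conservative. It did not pair sums of the same pool, and the difference between replicates counted as spread. The lack of a call on the members is therefore weak evidence that they did not change. Log2 fold changes of the members ran from -0.59 ± 0.82 for Ctsh in myeloid-like cells to 0.15 ± 0.38 for Ctsl in macrophage-like cells. Their medians were -0.10, -0.20, -0.27 and -0.046 in the order of the groups above. With 1 sum left out the medians ran from -0.52 to 0.39, from -0.71 to 0.58, from -0.42 to 0.12 and from -0.52 to 0.25, so no direction is read from them. They were highest without the control of replicate 2 in the first 3 groups and without the cKO of replicate 1 in arterial-like cells. All 10 members were tested in the first 2 groups and 9 in the others, where Ctss was too low.

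The cKO and control sums overlapped in most cases, and the replicates often moved in opposite directions. In macrophage-like cells 5 members were lower in cKO in both replicates (Ctsa, Ctsb, Ctsd, Ctss and Lgmn), in myeloid-like cells 3 (Ctsd, Ctsz and Lamp1), in EHT-like cells 3 (Ctsb, Ctsc and Ctsz) and in arterial-like cells 2 (Ctsh and Lgmn), where 27.3%, 17.2%, 24.7% and 25.2% of genes with a mean of 10 CPM or more were. None was higher in cKO in both replicates in any of these groups, where 26.6%, 30.6%, 24.6% and 25.2% of those genes were. Lgmn, picked as an example after its values were seen, moved in macrophage-like cells from 712 to 437 CPM in replicate 1 and from 866 to 819 CPM in replicate 2, and in myeloid-like cells it moved from 14.8 to 42.8 CPM and from 89.9 to 41.4 CPM. With the replicate as a block, 19, 5, 31 and 80 genes were called in the 4 groups in the order above (0.19%, 0.0516%, 0.358% and 0.802%), and no member was among them. A test (edgeR) of whether the effect of genotype differed among the 4 groups called 0 of 10939 genes, with unadjusted p of 0.871 or more for the members. That fit had no term for the replicate, so the difference between pools counted as spread. It could therefore miss such differences, and nothing is concluded from it. In microglia-like and megakaryocyte-like cells only replicate 2 had sums of both genotypes, and log2 differences of cKO from control, on the scale of log2(CPM + 1), ran from -0.24 to 0.038 and from -0.90 to 0.064.

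The sums differ in sex as well as genotype. Xist without any transcript of chromosome Y was read in 92.8% and 98.7% of control cells of replicates 1 and 2, and in 0.872% and 57.6% of cKO cells, and the part of sex in these values was not tested. None of the 73, 72, 59 and 63 other lysosomal genes tested in the 4 groups was called, and 0, 1, 0 and 0 had an unadjusted p under 0.05.

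**Figure D5:**
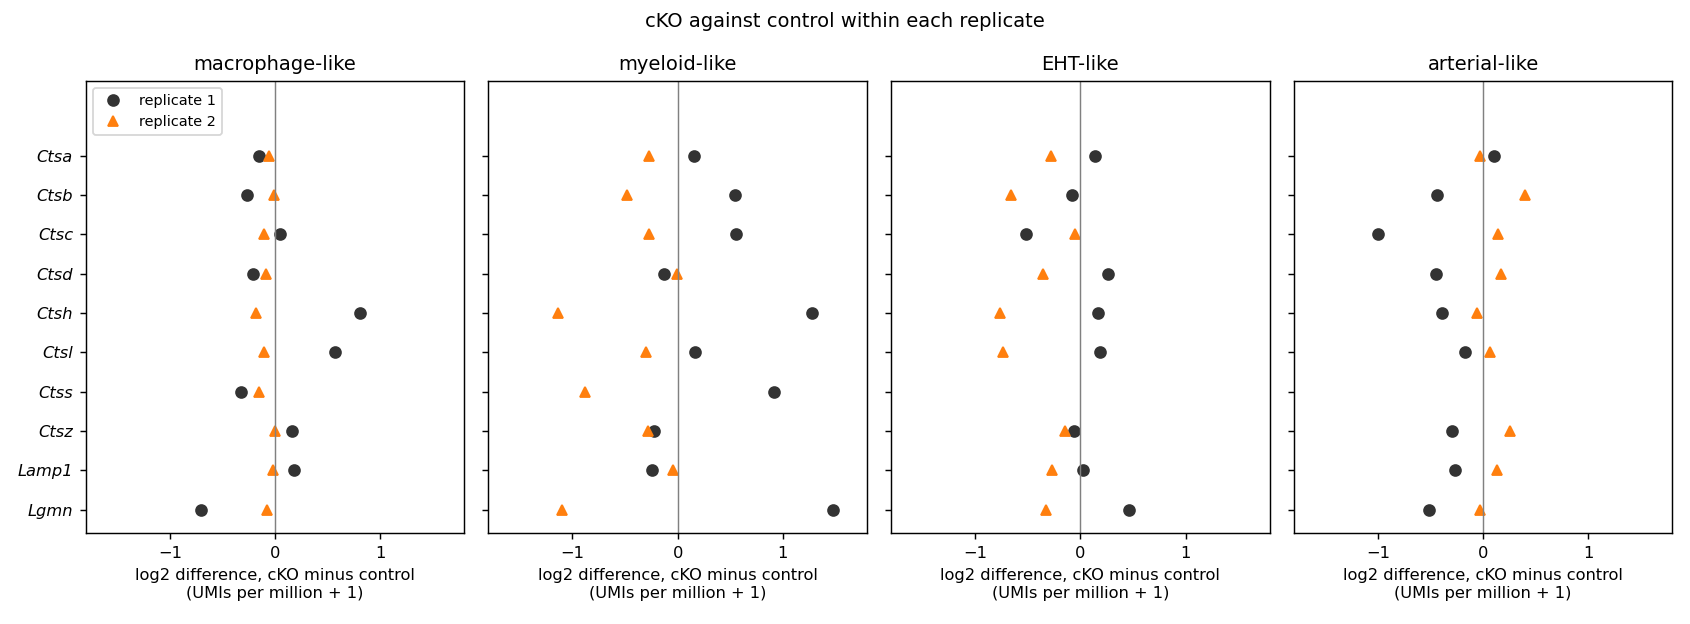
Log2 difference of cKO minus control, in CPM with 1 added, for each of the 10 genes in 4 groups of cells, with circles for replicate 1 and triangles for replicate 2. Ctss is left out where it was too low to test, and most genes have a replicate on each side of 0.

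The replicates themselves differed more than the genotypes. In macrophage-like cells both sums of replicate 1 lay under both sums of replicate 2 for 10 of 10 members, where 25.8% of 6884 genes with a mean of 10 CPM or more did so and 43% of them lay the other way. In arterial-like cells this held for 8 of 9 members (27.8% of 7822 genes), in myeloid-like cells for 8 of 10 (30.5% of 6800) and in EHT-like cells for 5 of 9 (24.6% of 7462), and no member lay the other way in any of these groups, where 32.3%, 35.6% and 32.5% of genes did. Lamp1 in arterial-like cells, at 295 CPM in control and 245 CPM in cKO of replicate 1 and 294 and 323 CPM in replicate 2, was one of the exceptions. The replicates were separate pools of different depth, and which of their differences moves with these genes was not tested.

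Over the 22 sums, the members fell into a main set and a pair. Pearson correlations of log2(CPM + 1) were taken as a measure of likeness only, since sums of 1 group and pool share their cells' origin. Ctss and Ctsz (r = 0.968), Ctsa and Ctsb (r = 0.967) and Ctsd and Lamp1 (r = 0.949) were closest to each other. Ctsh was closest to Ctsl (r = 0.818), and its median correlation with the other members was 0.10, the lowest of the 10. The 5 genes, of 7679 that are no members, closest to the mean of the 10 were Tnfrsf11a (r = 0.967), which encodes the receptor RANK, B2m (r = 0.964), the light chain of class I molecules, Asah1 (r = 0.957), acid ceramidase, Tmem55b (r = 0.957) and Psap (r = 0.957), the precursor of the saposins.

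From cell to cell, Ctsb was the most uneven member in macrophage-like cells for its level. After thinning, it had a mean of 13.3 UMIs in the 317 macrophage-like cells of replicate 2, with quartiles of 8 and 18, and its variance was 4.89 times its mean, where the median was 1.58 among 68 genes of like mean. Ctsz, at a mean of 6.14 UMIs, had a ratio of 1.54 against 1.49 among 93 such genes. Ctsb and Ctsd rose and fell together from cell to cell in both phagocytes, with a Spearman rho of 0.61 over 317 macrophage-like cells and 0.61 over 116 microglia-like cells of replicate 2. Ctsc and Ctsz did so over 150 myeloid-like cells (rho = 0.62). In arterial-like cells the highest rho among 21 pairs was 0.24, and that of Ctsh and Ctsl was 0.18 over 187 cells, and counts there were lower.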

How the data were processed

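Single-cell RNA-seq was read from 2 replicates of CD31+CD44+ cells of the caudal part of E10.0 embryos. The deposited files held UMI counts, which the authors made with Cell Ranger 5.0.1 (submitters' processing notes) on the mm10 build, and the hashtag call of each cell. All columns of cells belonged to a sample of the series. The authors kept hashtag singlets. Here cells that met several marker gates were left out, apart from P2ry12 and Tmem119 taken before Mrc1, and Gfi1 and Neurl3 taken before Gja5; no other doublet caller was run.

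Counts were summed per cell group, hashtag and replicate. Sums of 10 or more cells were tested with edgeR 4.0.16 in R 4.3.3 (robust quasi-likelihood F test, TMM scaling, filterByExpr, Benjamini-Hochberg adjustment over all genes tested, threshold 0.05), with all groups in 1 fit for differences between groups and 1 fit per group for genotype. SEs of edgeR values are the absolute log2 fold change divided by the square root of its F statistic. They are approximate, the more so where a group had few UMIs. Steps across all genes were tested on simulated data. Alternatives were the replicate block, DESeq2 1.42.0, RLE scaling, no low-count filter, each genotype of a replicate left out, markers at 3 or more UMIs, the study's cell limits (1800 genes, 6000 UMIs, 5% mitochondrial), thinning to 6000 UMIs, Ward clusters in place of gates, all groups in 1 fit for genotype, and gates resolved where they overlap, the last chosen after seeing the data.

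Replicate numbers marked a shared pool. Deviations of control and cKO sums of the same replicate from their genotype means correlated with r of 0.380 in macrophage-like, 0.378 in myeloid-like, 0.435 in EHT-like and 0.442 in arterial-like cells. The members and lists were chosen with earlier results of these data known. Each member was named in each comparison of groups, with the 3 highest and 3 lowest called genes of the list of other lysosomal genes and the 5 genes of most like pattern. Some genes that this rule names are not reported here. Cells had a median of 23325.5 to 81915 UMIs by group. Intervals and limits for a count of 0, set at 3 UMIs of the sum, cover counting error only.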

Additional observations from a re-analysis of the deposited data

Results flagged for a closer look

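One of 40 sets of 4 sums was singled out for a sample far from the others. Lamp1 in EHT-like cells was at 211 CPM in the control of replicate 2, with the other 3 sums at 172 to 176 CPM, so that the gap took 0.917 of the range. Chance flags about 1 in 20 such groups.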

How the results depend on the processing

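Of 750 values of single members in the comparisons of groups under other settings (genotype values are not among them), 656 kept their direction and their side of the threshold, 58 passed it newly, 12 no longer passed it and 24 changed sign; none of the last was called, and the cause was not tested. The replicate block, where the number marks a shared pool, raised the genes called to 4587 for EHT-like against arterial-like (members called 7, from 1), 466 for microglia-like against macrophage-like (members 2), 3932 for myeloid-like against macrophage-like and 727 for plexus-like against arterial-like (members 1), and to 19, 5, 31 and 80 for genotype in macrophage-like, myeloid-like, EHT-like and arterial-like cells. In those 4 groups no filter gave 3, 7, 11 and 4, DESeq2 gave 2 in myeloid-like cells, and Ward clusters and all groups in 1 fit gave 0 in EHT-like cells. Thinning lowered the genes called to 3692 (macrophage-like against arterial-like), 1962 (megakaryocyte-like), 775 (myeloid-like), 88 (microglia-like) and 518 (EHT-like). Ward clusters gave 5705 genes for EHT-like and 469 for microglia-like cells. Microglia-like cells gave 312 genes with markers at 3 or more UMIs and 392 without a filter, and plexus-like cells gave 178 with DESeq2, 630 without a filter and 606 with overlapping gates resolved. Members called in EHT-like cells were all lower. They were 3 with DESeq2, RLE, resolved gates or thinning, where 1154 of 11907, 1815 of 11907, 1920 of 11966 and 439 of 8236 genes were lower. They were 4 under the stated limits (1799 of 11817 genes lower) and 5 with markers at 3 or more UMIs (1991 of 11943). They were 6 with Ward clusters (3130 of 12787) and 7 without a filter (1995 of 17001). In microglia-like cells members called were 3 with Ward clusters (469 of 12787 genes called) and 2 without a filter (392 of 17001). They were 2 when thinned (88 of 8236) and 1 with stricter markers (312 of 11943). In plexus-like cells they were 1 with DESeq2 (178 of 11907) and 2 without a filter (630 of 17001).

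Leaving out a genotype of a replicate gave 1405 to 2012 genes for EHT-like (members 0 to 4), 4654 to 5908 for macrophage-like against arterial-like, 2149 to 3539 for megakaryocyte-like (members 8 to 10), 18 to 86 for microglia-like, 1043 to 1588 for myeloid-like (members 5 to 8) and 123 to 292 for plexus-like cells (members 0 to 1), and for genotype 4 to 18 in EHT-like, 2 to 17 in arterial-like, 2 to 18 in macrophage-like and 10 to 43 in myeloid-like cells; a lone sum is assumed to vary like the others. The sign changed for Ctsl in macrophage-like against arterial-like cells with Ward clusters (-0.18), no filter (-0.028), resolved gates (-0.035), the stated limits (-0.031), thinning (-0.0079) and without the control of replicate 2 (-0.11, in a range up to 0.29 over the samples left out). In microglia-like against macrophage-like cells it changed for Ctsl with resolved gates (-0.055), the replicate block (-0.23) and without the cKO of replicate 1 (-0.10), the cKO of replicate 2 (-0.07) or the control of replicate 2 (-0.11, range up to 0.050), for Ctsa with the block (-0.034) and without the cKO of replicate 1 (-0.10, range up to 0.16), for Ctsb with Ward clusters (0.066) and for Ctsc with Ward clusters (0.22), stricter markers (0.12), resolved gates (0.043) and the stated limits (0.12). In plexus-like cells it changed for Ctsa (0.17 resolved, 0.27 with the block, 0.12 without the cKO of replicate 2, range from -0.16) and Ctsz (0.075, 0.18 and 0.21, range from -0.30). Ward clusters, thinning and leaving out the cKO of replicate 1 gave no plexus-like value, and thinning gave no genotype value in myeloid-like or EHT-like cells.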

Other observations

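The cells outside the groups also held these genes. Among the 249 cells that met no gate, at a median of 52567 UMIs, Ctsh was found in 61.0%, Ctss in 26.1% and Lamp1 in 94.4%. Among the 442 that met several gates, at a median of 67385 UMIs, these shares were 50.2%, 34.6% and 99.8%. These cells entered no comparison.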
